A study of Mus musculus with 6 samples.

Results

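The 7 genes described here encode heavy chains of class II myosin, the motor proteins that pull on actin. Myh6, Myh7 and Myh7b are sarcomeric, and Myh9, Myh10, Myh11 and Myh14 are non-muscle or smooth muscle forms. They were taken by symbol from a table of 23404 genes, and all 7 were found and passed the filter on low values. The libraries hold messenger RNA of cardiomyocyte preparations from C57BL/6J mice, sorted on their own green fluorescence, read in the FITC channel, and on forward scatter (FSC), which reads out size. FITChigh cells were bright in FITC and dim in FSC, and FITCdim cells were dim in FITC and bright in FSC, with 3 libraries of each. The series names ventricular cardiomyocytes as its subject. Strain and cell type are shared by both gates, no genotype or treatment is labelled, and age and sex are not stated in the labels.

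A class II myosin is a pair of heavy chains, each with a motor head that splits ATP, a neck that binds an essential and a regulatory light chain, and a long coiled tail that assembles into filaments. In the adult mouse ventricle the alpha chain, Myh6, carries most of the contraction. The slower beta chain, Myh7, dominates before birth and returns under load or when thyroid hormone is low. Non-muscle chains build contractile cables in the cortex of most cells, and Myh11 is the heavy chain of smooth muscle. The introns of the 3 sarcomeric genes are also known for the microRNAs they carry, of which those of Myh6 and Myh7b help to keep slow-type genes on in the mouse heart.

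Per the submitters' notes the authors used build mm10, and positions are those of GENCODE M21 on the same assembly. Myh6 (chromosome 14, 54941921 to 54966927) and Myh7 (chromosome 14, 54970684 to 54994626) lie on the minus strand with 3756 bases between them. Myh7b is on chromosome 2 (155611212 to 155634307), Myh9 on chromosome 15 (77760587 to 77842175), Myh10 on chromosome 11 (68691559 to 68816632), Myh11 on chromosome 16 (14194535 to 14291372) and Myh14 on chromosome 7 (44605803 to 44670843). The hairpin of Mir208a lies in intron 29 of Myh6, that of Mir208b in intron 31 of Myh7 and that of Mir499 in intron 19 of Myh7b, each on the strand of its host. The guide strands are shown because each sarcomeric locus encodes one besides its myosin. They are given 5′ to 3′ from RefSeq (GRCm38.p6), with the seed, bases 2 to 8, in capitals.
mmu-miR-208a-3p (Myh6): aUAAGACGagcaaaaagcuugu
mmu-miR-208b-3p (Myh7): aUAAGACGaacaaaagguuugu
mmu-miR-499-5p (Myh7b): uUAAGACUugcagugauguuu
The pair from Myh6 and Myh7 share the whole seed, and miR-499-5p shares bases 2 to 7 of it with both. Libraries of polyadenylated RNA do not measure mature microRNAs. The table lists Mir208b and Mir499 at 0 in every library, and Mir208a at 6.73, 0.397 and 4.8 in FITChigh against 3.54, 0.185 and 7.73 in FITCdim, from 13 reads in each gate. Those reads are too few to compare.

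Myh6 and Myh7 are close enough for reads to be shared between them. Their coding sequences were identical at 91.8% of 5800 aligned bases, against 72.9% for Myh6 and Myh7b and 74.7% for Myh9 and Myh10. Of all stretches of 75 bases, the length of a read, in the Myh7 transcript, 15.25% also occur in a Myh6 transcript. The share was 0.62% for Myh10, all of them in Myh9, and 0 for Myh7b, Myh11 and Myh14. The longest identical run of the Myh6 and Myh7 coding sequences was 245 bases. The coding window of 75 bases with the most differences between the pair, 30 of them, crosses exons 24 and 25 of Myh6 (chr14:54952277-54952588, minus strand) and exons 26 and 27 of Myh7 (chr14:54980352-54982180, minus strand). It is shown, from the GENCODE transcripts, as the kind of stretch that tells a read of the beta chain from one of the alpha chain, and capitals mark the bases that differ.
Myh6: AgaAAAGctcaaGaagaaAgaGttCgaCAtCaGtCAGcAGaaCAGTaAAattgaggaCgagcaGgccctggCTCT
Myh7: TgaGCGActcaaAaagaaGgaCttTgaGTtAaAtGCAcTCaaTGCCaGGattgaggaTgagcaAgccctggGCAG
Of the coding windows of 75 bases, 41.76% held 2 or fewer differences. How the authors divided shared reads is not given in the sources used here, so the level of Myh7 is uncertain by the reads it may have gained from, or lost to, Myh6. Myh7 stood at 0.2263% to 0.5002% of Myh6 within a library, so even a small share of Myh6 reads would weigh heavily on it. The ratios of Myh7 to Myh6 and of Myh7b to Myh7 carry this limit.

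Levels are the deposited values, which are read counts that the authors adjusted to a common library size and did not divide by gene length. Reads could be recovered from the patterns in which low values repeat, and each FITChigh library held 1589825 to 2931045 of them and each FITCdim library 1705626 to 3345994. The adjusted values still summed to 2333473 to 2443707 per FITChigh library, against 2030583 to 2112872 per FITCdim library, so a level in FITChigh stands somewhat higher in this unit than it would with one common total. Differences were tested with limma on log2(value + 1) over 12907 genes, with Benjamini-Hochberg adjustment at a threshold of 0.05. Of all genes tested, 2.51% were called higher in FITChigh and 13.5% lower, a split that moved with the scaling. With one common total 41 genes were higher and 2189 lower, and after quantile normalization 467 were higher and 1213 lower. Leaving out FITChigh replicate 1 brought the 324 higher genes to 67, leaving out FITChigh replicate 2 to 185 and leaving out FITCdim replicate 1 to 148. Leaving out FITCdim replicate 1 brought the 1748 lower genes to 1152. The series text calls the libraries biological replicates and does not say whether the gates came from the same hearts. Both gates carried the cell type they are labelled with, since all 19 cardiomyocyte markers were measured in each, at a summed level of 345012 to 404859 in FITChigh and 260519 to 294588 in FITCdim. Of these markers, Cox6a2, Ckmt2 and Tnni3 passed the test, all higher in FITChigh, and 11 did with limma-voom on recovered reads.

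Among the 7 heavy chains, Myh7b and Myh14 were higher in FITChigh, Myh9 and Myh11 were lower, and Myh6, Myh7 and Myh10 did not pass the test. Directions differed within the non-muscle forms, where Myh14 rose and Myh9 fell. The 2 higher genes of 7 stand beside 2.51% of all genes tested and the 2 lower ones beside 13.5%. Values of FITChigh did not overlap those of FITCdim in 6 of the members, all but Myh7, against 31.6% of all genes tested. Of these, 3 lay higher in FITChigh, against 11.4% of all genes, and 3 lay lower, against 20.2%.

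**Figure D1:**
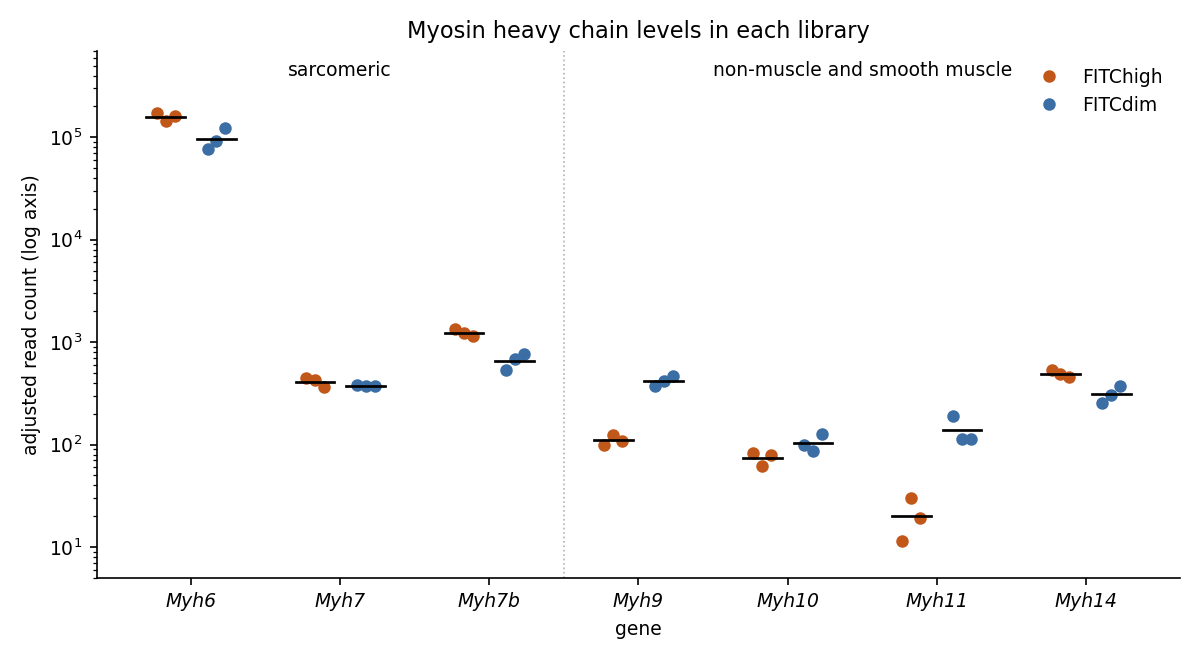
Adjusted read counts (log axis) of the 7 myosin heavy chain genes in each library, with 3 points per gate and a line at their mean. Myh6 stands at 76053 or more in every library, and the points of the 2 gates overlap for Myh7 alone.

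Myh6, the alpha chain, was by far the most abundant. It had 172237, 145293 and 160911 adjusted read counts in the FITChigh libraries, against 76053, 91115 and 122952 in FITCdim. The lowest FITChigh library was thus above the highest FITCdim library, and the FITCdim libraries were the more spread. The log2 fold change of 0.75 (SE 0.32, adjusted p = 0.14 by limma) did not pass the test. It was called in 5 of 15 alternatives. Among them were robust empirical Bayes (adjusted p = 0.0013), limma-voom on recovered reads (0.00081), a filter at a value of 10 (0.035) and the fit without FITCdim replicate 3 (0.035). The log2 fold change was 0.00 after quantile normalization, which sets values by rank within a library. A gene of equal rank in every library cannot differ under that setting. Over the other alternatives the adjusted p by limma ran from 0.00081 to 0.33.

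Myh7, the beta chain, had 442, 422 and 364 adjusted read counts in the FITChigh libraries, against 380, 376 and 374 in FITCdim, from 1196 reads in FITChigh and 1259 in FITCdim. The FITCdim values lay inside the range of FITChigh. The log2 fold change was 0.11 (SE 0.13, 95% interval -0.16 to 0.39, adjusted p = 0.62 by limma), and it was -0.09 with every library rescaled to one common total, a scaling that moved the median of all genes by -0.20. Within each library, Myh7 amounted to 0.257%, 0.291% and 0.226% of Myh6 in FITChigh against 0.5002%, 0.413% and 0.304% in FITCdim. The ratio was lower in every FITChigh library than in any FITCdim library, by 0.63 on the log2 scale (exact two-sided permutation p = 0.1, the smallest that 20 assignments allow; adjusted p = 0.14 over 7 ratios). A design of 3 against 3 libraries cannot reach the threshold with this test. By the limma fold change Myh6 was 1.68-fold higher in FITChigh and Myh7 1.08-fold, and neither difference passed the test.

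Myh7b is a slow-type sarcomeric chain of ancient origin and the host of miR-499. It had 1337, 1234 and 1148 adjusted read counts in the FITChigh libraries, against 534, 683 and 765 in FITCdim. All 3 FITChigh libraries were above all 3 FITCdim libraries, and the rise was 1.89-fold (log2 fold change 0.92, SE 0.15, adjusted p = 0.0003 by limma). Set against Myh7, a chain of nearly the same length, it was 3.02, 2.92 and 3.15 times as high in FITChigh and 1.40, 1.82 and 2.04 times in FITCdim. That ratio was 1.75-fold higher in FITChigh without overlap (exact two-sided permutation p = 0.1; adjusted p = 0.14). Set against Myh6 it was 0.776%, 0.850% and 0.713% in FITChigh and 0.702%, 0.749% and 0.622% in FITCdim, which overlap (exact two-sided permutation p = 0.2; adjusted p = 0.2). Trpc4ap, which lies on the opposite strand and overlaps Myh7b, had a log2 fold change of 0.08 (adjusted p = 0.78 by limma). Whether the authors counted reads by strand is not given in the sources used here. Antisense genes annotated at Myh6, Myh7 and Myh14, Mhrt among them, were not found by symbol among the genes read here.

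**Figure D2:**
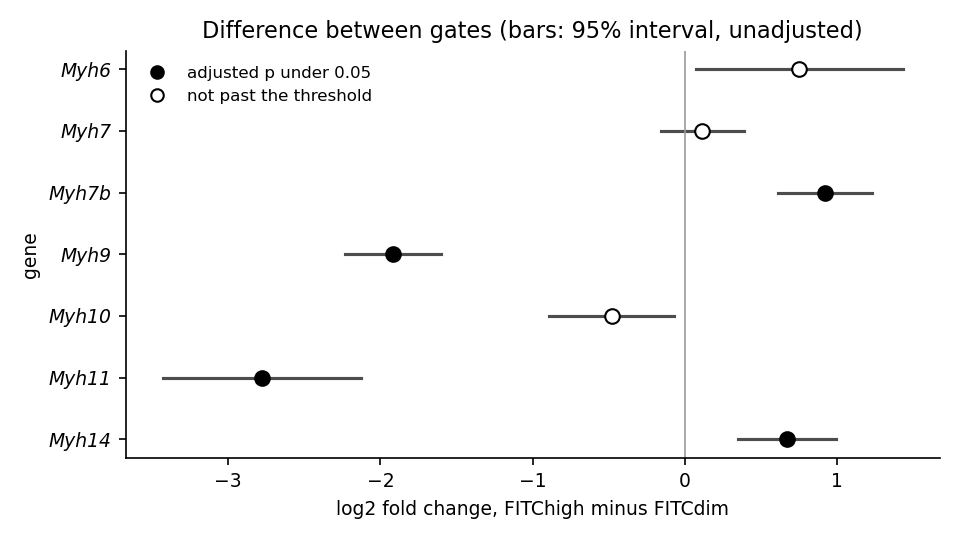
Log2 fold change of each heavy chain, FITChigh minus FITCdim, with its unadjusted 95% interval from limma (3 libraries per gate). Filled points passed an adjusted p of 0.05. Myh7b and Myh14 lie right of 0 and Myh9 and Myh11 left of it.

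Myh9, the heavy chain of non-muscle myosin II-A and abundant in endothelium, platelets and leukocytes, fell in FITChigh. Its adjusted read counts were 98.3, 123 and 108 there, against 371, 416 and 467 in FITCdim. Every FITCdim library was above every FITChigh library, a 3.78-fold difference (log2 fold change -1.92, SE 0.15, adjusted p = 2.8e-07 by limma). It rested on 320 reads in FITChigh and 1359 in FITCdim. Over 15 alternatives the log2 fold change ran from -2.12 to -1.83.

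Myh11, the smooth muscle heavy chain, showed the largest difference of the 7. It had 11.3, 30.3 and 19.0 adjusted read counts in the FITChigh libraries, against 191, 113 and 113 in FITCdim, from 57 reads in FITChigh and 500 in FITCdim. The gates did not overlap, and the fall was 6.87-fold (log2 fold change -2.78, SE 0.30, adjusted p = 8.2e-06 by limma). Its ratio to Myh9 was 0.115, 0.246 and 0.176 in FITChigh and 0.514, 0.273 and 0.243 in FITCdim. Those ratios overlap, because FITChigh replicate 2 stood just above FITCdim replicate 3, so it was not shown that Myh11 fell further than Myh9 (exact two-sided permutation p = 0.2; adjusted p = 0.2).

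Myh10, the heavy chain of non-muscle myosin II-B, is best known from embryonic heart and brain. It had 82.2, 61.3 and 79.0 adjusted read counts in the FITChigh libraries, against 99.1, 87.3 and 127 in FITCdim, from 224 reads in FITChigh and 346 in FITCdim. The gates did not overlap, but the difference was small and did not pass the test (log2 fold change -0.48, SE 0.19, 95% interval -0.89 to -0.07, adjusted p = 0.11 by limma). With one common total it was called lower, at -0.69 (adjusted p = 0.022), and over 15 alternatives the adjusted p ran from 0.022 to 0.36. Its ratio to Myh9 was 0.836, 0.497 and 0.730 in FITChigh and 0.267, 0.210 and 0.272 in FITCdim. It was thus 2.71-fold higher in FITChigh without overlap (exact two-sided permutation p = 0.1; adjusted p = 0.14).

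Myh14, the heavy chain of non-muscle myosin II-C, whose human counterpart is a deafness gene, rose in FITChigh. Its adjusted read counts were 539, 484 and 458 there, against 255, 307 and 375 in FITCdim. The gates did not overlap, and the rise was 1.6-fold (log2 fold change 0.67, SE 0.15, adjusted p = 0.0052 by limma), with 1455 reads in FITChigh and 1000 in FITCdim behind it. With one common total the value was 0.47 (adjusted p = 0.034), and it passed the test in all 15 alternatives, with an adjusted p of at most 0.039. Against Myh9 it stood at 5.48, 3.93 and 4.23 in FITChigh and at 0.688, 0.738 and 0.802 in FITCdim. Myh14 was thus above Myh9 in every FITChigh library and below it in every FITCdim library, in counts and, at ratios of 4.49 to 6.27 in FITChigh and 0.787 to 0.917 in FITCdim, also per kb of transcript. The ratio was 6.07-fold higher in FITChigh (exact two-sided permutation p = 0.1, adjusted p = 0.14). Since Myh14 rose and Myh9 fell, each without overlap, this ratio could not overlap between the gates.

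**Figure D3:**
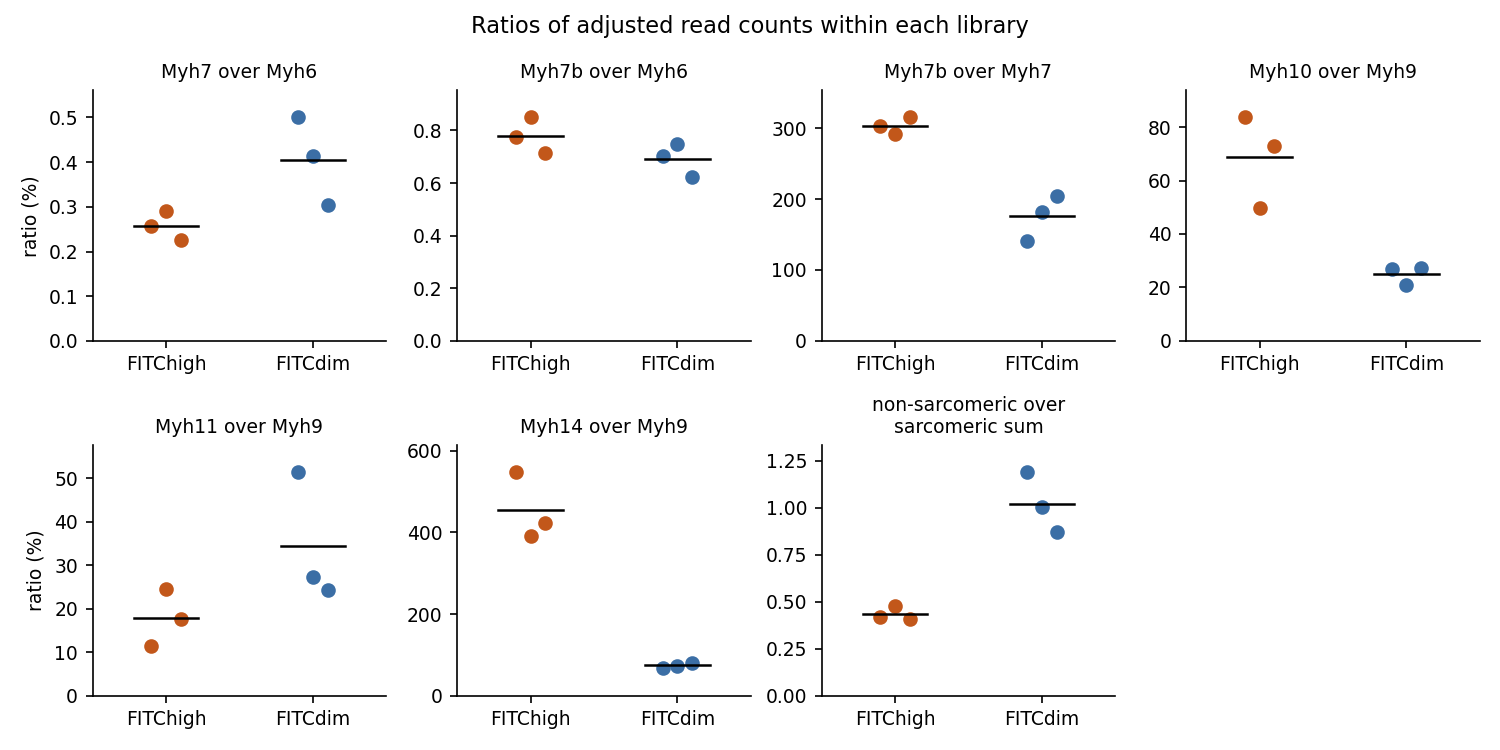
Ratio of adjusted read counts within each library, in percent, for 6 pairs of paralogs and for the summed non-sarcomeric over the summed sarcomeric chains, with 3 points per gate and a line at their mean. Myh14 over Myh9 lies at 393 to 548% in FITChigh and at 68.8 to 80.2% in FITCdim.

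The promoters of Myh14 and Myh9 are shown because these 2 non-muscle paralogs moved in opposite directions. Each line gives the 250 bases before the start site from RefSeq (GRCm38.p6), 5′ to 3′ on the strand of the gene. Both strands were searched for TATAAA (the TATA box), for CCAAT, for GGGCGG (the GC box bound by Sp1), for CATTCC (the MCAT motif bound by TEAD factors), for AGATAA (a site of GATA factors), and for the MEF2 and CArG boxes. Capitals mark the matches, which do not overlap. The start site of Myh14 is the most upstream one annotated, and other long transcripts of the gene begin further downstream.
Myh14 (chr7:44670844-44671093, minus strand): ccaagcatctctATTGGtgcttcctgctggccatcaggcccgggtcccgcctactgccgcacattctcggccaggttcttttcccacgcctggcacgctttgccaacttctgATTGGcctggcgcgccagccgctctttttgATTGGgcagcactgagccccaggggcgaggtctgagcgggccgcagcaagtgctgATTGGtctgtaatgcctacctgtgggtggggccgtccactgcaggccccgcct
Myh9 (chr15:77842176-77842425, minus strand): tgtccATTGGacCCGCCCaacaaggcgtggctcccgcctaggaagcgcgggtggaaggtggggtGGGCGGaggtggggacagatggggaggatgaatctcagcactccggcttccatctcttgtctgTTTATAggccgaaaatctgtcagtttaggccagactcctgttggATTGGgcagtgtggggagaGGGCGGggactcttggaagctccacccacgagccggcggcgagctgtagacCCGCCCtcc
The Myh14 window held 4 CCAAT boxes and no other of the motifs. The Myh9 window held 2 CCAAT boxes, 4 GC boxes and 1 TATA box, the last 123 bases before the start site. The same window of Myh7b held 1 GATA site. Over all 32851 windows in the RefSeq table, 33.8% held a CCAAT box, 32.7% a GC box, 12.4% a TATA box and 9.99% a GATA site. The share was 12.6% for the MCAT motif, 2.92% for the MEF2 box and 1.47% for the CArG box, none of which the 3 windows held. In the same window the MCAT motif occurred 1 time in Myh6, 1 time in 1 of the 2 entries of Myh7 and 1 time in Myh10, which also held 3 CCAAT boxes. Such a match is a string of letters and was not tested for binding. Myh11 has no entry.

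Per kilobase of transcript, which allows levels of different genes to be compared, the order was led by Myh6 and Myh7b in both gates. In FITChigh, Myh6 had 26089 ± 2213 adjusted read counts per kb, Myh7b 201 ± 15.4, Myh14 76.0 ± 6.3, Myh7 65.7 ± 6.51, Myh9 14.8 ± 1.71, Myh10 9.52 ± 1.44 and Myh11 3.09 ± 1.46 (SD, n = 3 each). Myh14 and Myh7 overlapped there, and no other neighbours did. In FITCdim, Myh6 had 15820 ± 3917, Myh7b 107 ± 19.0, Myh7 60.5 ± 0.513, Myh9 56.2 ± 6.49, Myh14 48.0 ± 9.22, Myh11 21.3 ± 6.82 and Myh10 13.4 ± 2.63 (SD, n = 3 each). Myh7 overlapped Myh9 there and Myh9 overlapped Myh14. Myh7 and Myh9, which overlapped per kb in FITCdim, were 4.49-fold apart in FITChigh.

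Myh6 made up 98.6% ± 0.128 of the summed level per kb in FITChigh, and 98.1% ± 0.271 of it in FITCdim (SD, n = 3 each). The other 7 heavy chain genes fixed for comparison, the fast, embryonic and extraocular forms Myh1, Myh2, Myh3, Myh4, Myh8, Myh13 and Myh15, did not pass the filter, and their summed level was 0.0972 to 1.69 adjusted read counts in FITChigh and 1.15 to 3.56 in FITCdim. Within the non-sarcomeric set the makeup differed. Myh14 took 73.4% ± 2.64 of it in FITChigh against 34.4% ± 3.92 in FITCdim, and Myh9 took 14.4% ± 1.96 in FITChigh, while its FITCdim share was 40.4% ± 2.21 (SD, n = 3 each). Myh11 took 3.01% ± 1.43 in FITChigh against 15.5% ± 5.88 in FITCdim, and Myh10 took 9.22% ± 1.44 in FITChigh against 9.6% ± 1.05 in FITCdim. Of these 4 shares, that of Myh10 alone overlapped between the gates. As read counts, the non-sarcomeric sum was 0.420%, 0.476% and 0.409% of the sarcomeric sum in FITChigh and 1.19%, 1.00% and 0.872% in FITCdim. That ratio was lower in FITChigh without overlap, at 0.428 of its FITCdim value (exact two-sided permutation p = 0.1; adjusted p = 0.14). The share of Myh14 in all 7 chains per kb, which is in effect its level relative to Myh6, was 0.288% ± 0.0223 in FITChigh and 0.3% ± 0.016 in FITCdim and overlapped.

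**Figure D4:**
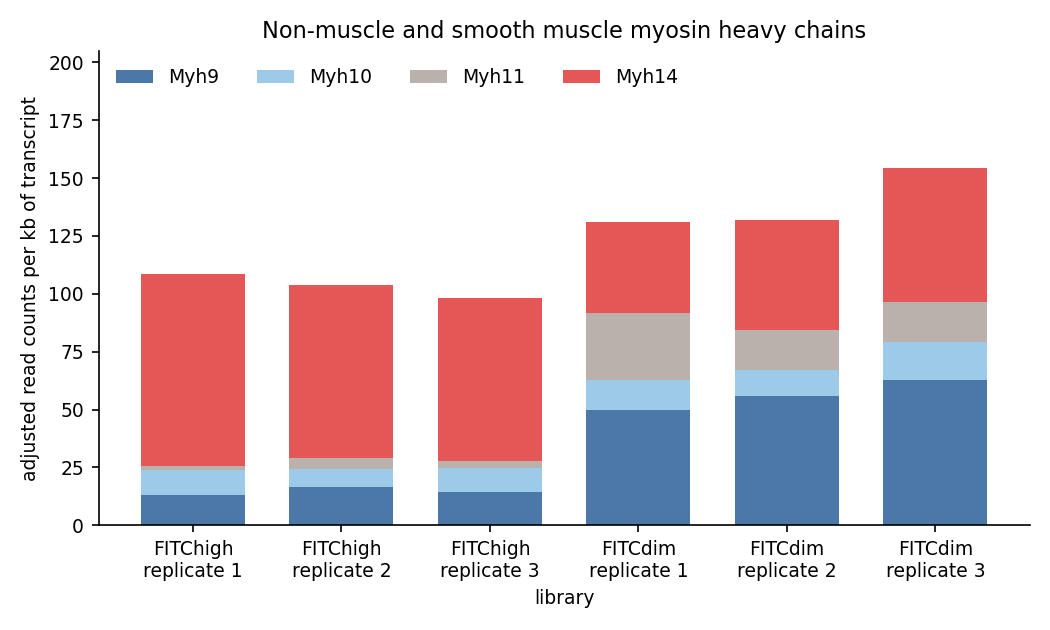
Adjusted read counts per kb of transcript of Myh9, Myh10, Myh11 and Myh14, stacked for each of the 6 libraries. Myh14 is the tallest segment in the 3 FITChigh libraries, at 70.5 to 82.9, and Myh9 in the 3 FITCdim libraries, at 49.9 to 62.9.

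Markers of cells other than ventricular myocytes were lower in FITChigh alongside Myh9 and Myh11. All 15 endothelial markers fell, with a summed level of 814 to 1132 adjusted read counts in FITChigh and 5895 to 6685 in FITCdim, and so did 11 of 12 mural markers (394 to 504 in FITChigh, 1056 to 1416 in FITCdim). The mural marker that did not pass, smooth muscle actin Acta2 (log2 fold change -0.45, adjusted p = 0.085 by limma), was the most abundant of its list. Of the fibroblast markers 9 of 9 tested fell (55.2 to 80.1 in FITChigh against 429 to 829 in FITCdim), and of the macrophage markers 9 of 10 (91.6 to 127 in FITChigh, 469 to 1040 in FITCdim). All 5 epicardial markers fell (8.54 to 13.1 in FITChigh, 72.7 to 151 in FITCdim), as did all 6 atrial markers tested (231 to 488 in FITChigh, 1213 to 2515 in FITCdim). The most abundant of these lists were Fabp4, Acta2, Dcn, Lyz2, Wt1 and Nppa. In FITChigh, the fibroblast marker Tcf21 and the macrophage marker Fcgr1 had 0 reads, against 4 and 7 in FITCdim. In bulk samples, fewer cells of a type and less RNA per cell cannot be told apart, and the part of these cells in the levels of Myh9, Myh10 and Myh11 was not tested.

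The non-sarcomeric chains kept different proportions to these markers. The ratio of Myh11 to the summed endothelial markers differed by -0.21 in mean log2 ratio, with overlap and with the sign turning to 0.01 without FITChigh replicate 1 (exact two-sided permutation p = 0.5; adjusted p = 0.571 over 16 ratios). Relative to summed mural markers Myh11 was lower in FITChigh, by 1.46 on the log2 scale without overlap (exact two-sided permutation p = 0.1, adjusted p = 0.145). That sum is led by Acta2, which averaged 304 adjusted read counts of it in FITChigh and 414 in FITCdim. Acta2 had a log2 fold change of -0.45 against a median of -2.42 over the mural markers, so the sum fell less than most of them. All ratios to mural markers here carry this limit, and ratios without Acta2 were not computed. Against fibroblast markers Myh11 differed by 0.15 and against macrophage markers by -0.36, both with overlap (exact two-sided permutation p = 0.8 and 0.7; adjusted p = 0.8 and 0.747). Myh9 was higher relative to endothelial markers in FITChigh, by 0.71 on the log2 scale without overlap, and Myh10 by 2.15 without overlap (exact two-sided permutation p = 0.1 and adjusted p = 0.145 for each). Against the mural sum led by Acta2 the difference for Myh9 had the other sign, -0.54, with overlap (exact two-sided permutation p = 0.3, adjusted p = 0.4). It does not show that Myh9 fell further than mural markers in general, since its log2 fold change of -1.92 was smaller in size than their median of -2.42. The difference for Myh10 against that sum was 0.90 without overlap (exact two-sided permutation p = 0.1, adjusted p = 0.145). Myh9 differed by 1.07 against fibroblast markers without overlap (exact two-sided permutation p = 0.1; adjusted p = 0.145). Against macrophage markers Myh9 differed by 0.57 with overlap (exact two-sided permutation p = 0.4; adjusted p = 0.492). For Myh10 these differences were 2.51 and 2.01, without overlap (exact two-sided permutation p = 0.1 and adjusted p = 0.145 for each). Myh14 was 9.95-fold higher relative to endothelial markers and 4.19-fold higher relative to mural markers, again without overlap and with the same p-values. Relative to fibroblast and macrophage markers Myh14 was 12.7-fold and 9.0-fold higher, without overlap and with those p-values too. Myh14 rose and each of these marker sums fell without overlap, so its ratios to them could not overlap and these p-values add nothing. The fold values hold both changes. The log2 fold change of Myh14, 0.67, and that of Myh7b, 0.92, lay beside a median of 0.46 over the 19 cardiomyocyte markers and of -0.01 over all genes tested.

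**Figure D5:**
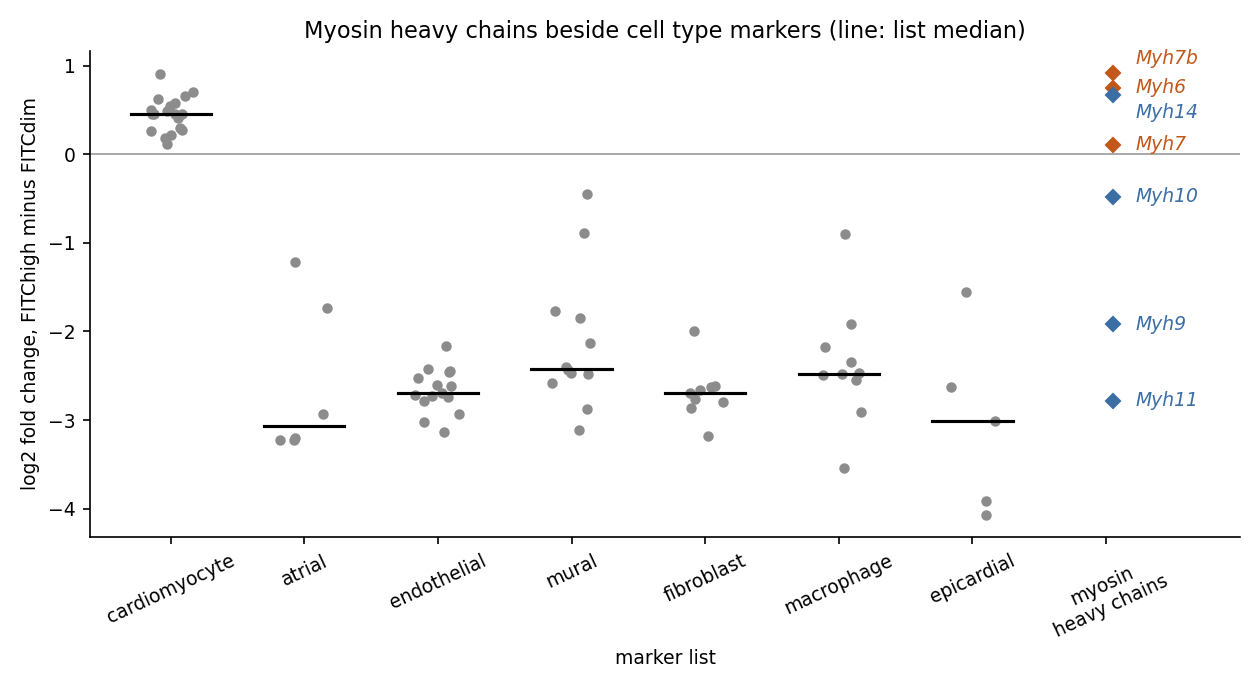
Log2 fold change, FITChigh minus FITCdim, of each tested marker gene of 7 cell type lists (grey points, line at the list median) and of the 7 heavy chains (diamonds; sarcomeric in orange, others in blue). Myh9 and Myh11 lie at -1.92 and -2.78, within the ranges of the atrial, mural, macrophage and epicardial markers. Myh11 lies within those of the endothelial and fibroblast markers as well. Myh14 lies at 0.67, beside Myh6 at 0.75.

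Gene by gene, the light chains that bind these motors fell or did not pass the test. Their summed level, led by Myl2, was not lower in FITChigh. Of 12 listed, 10 were tested, of which 5 fell and the other 5 did not pass, with a median log2 fold change of -0.67 against -0.01 over all genes tested. The 5 that fell stand beside 13.5% of all genes tested. None was called higher by limma, and 2 were higher at an unadjusted p under 0.05 and with limma-voom. Myl7 and Myl4, the atrial regulatory and essential chains, fell (log2 fold changes -3.23 and -3.22, adjusted p = 1.6e-06 and 3.3e-06 by limma). Myl12b, a regulatory chain of non-muscle myosin, averaged 27.5 ± 2.1 adjusted read counts in the FITChigh libraries, against 123 ± 28.6 in the FITCdim libraries (SD, n = 3 each; log2 fold change -2.09, adjusted p = 4.9e-06 by limma). Its close paralog Myl12a averaged 1956 ± 247 in FITChigh, against 1623 ± 169 in FITCdim (log2 fold change 0.27, adjusted p = 0.23), and reads may be divided between the pair. The others that fell were Myl9 of smooth muscle (-1.70) and Myl6 of smooth and non-muscle cells (-1.07). Myl2, the ventricular regulatory chain and the most abundant, did not pass (0.49, adjusted p = 0.16). Myl3 did not pass either (0.55, adjusted p = 0.056 by limma), though its gates did not overlap. It averaged 9980 adjusted read counts in the FITChigh libraries and 6798 in the FITCdim libraries. The sum over all 12 spanned 35297 to 51264 among FITChigh libraries, while FITCdim libraries spanned 28048 to 36857. Those ranges overlap, and the log2 difference of the sums was 0.44. Myl3, Myl12a, Myl9 and Myl6 are named after their values were seen.

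Partners of the sarcomeric thick filament were mostly higher in FITChigh. Of 14 listed, 11 were tested. Of these 6 rose, 1 fell and the remaining 4 missed the threshold, with a median of 0.46 on the log2 scale. The 19 cardiomyocyte markers had the same median, so the rise was not particular to these partners. Over all genes tested, 2.51% rose and 13.5% fell. The M-band gene Myom1 averaged 8371 ± 451 adjusted read counts in the FITChigh libraries, against 5496 ± 519 in the FITCdim libraries (SD, n = 3 each; log2 fold change 0.61, adjusted p = 0.012 by limma). Obsl1, a cytoskeletal linker, rose by 0.65 (adjusted p = 0.01). Mybphl, a relative of myosin binding protein C known from the atria, fell (-3.02, adjusted p = 3.3e-05). Titin, Ttn, the most abundant, stood at 0.28 (adjusted p = 0.43). Of 8 chaperones and partners of myosin folding, 0 passed in limma and 0 in limma-voom, and 1 was higher at an unadjusted p under 0.05. Hsp90ab1, the most abundant of them, stood at 0.09 (adjusted p = 0.75).

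Of the 12 tested kinases and phosphatases of light chains, 1 rose, 1 fell and the other 10 missed the threshold, with a median of -0.12 on the log2 scale. That share of calls is close to the 16.1% called in either direction over all genes. Mylk, the kinase of smooth and non-muscle cells, averaged 14.0 ± 3.93 adjusted read counts in the FITChigh libraries, against 82.4 ± 20.7 in the FITCdim libraries (SD, n = 3 each; log2 fold change -2.48, adjusted p = 1.1e-05 by limma). Mylk3, the cardiac kinase, averaged 1752 ± 64.1 in FITChigh, against 1392 ± 101 in FITCdim (0.33, adjusted p = 0.089). Dapk3, a kinase that acts on regulatory light chains, rose by 0.66 (adjusted p = 0.041). Of 15 tested factors known to act on myosin genes, Tead3 rose by 0.84 (adjusted p = 0.013) and Nfatc4 fell (-1.96, adjusted p = 0.018, from 3 reads in FITChigh and 22 in FITCdim). The other 13 missed the threshold, again a share of calls near the 16.1% over all genes, and Tead1, the most abundant, stood at 0.10 (adjusted p = 0.75).

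Genes whose pattern over the 6 libraries was most like that of a heavy chain were ranked by the root mean square difference of centred log2 values, among 6284 genes above the median level. Nearest to Myh6 were Speg (0.082), Myh14 (0.089) and Map7d1 (0.091), and nearest to Myh14 were Map7d1 (0.065), Klf15 (0.074) and Hrc (0.083). Nearest to Myh7b were Myh14 (0.129), Myh6 (0.138) and Xpo6 (0.143). So Myh14 was among the 3 nearest genes of both Myh6 and Myh7b. Nearest to Myh9 were Map1b (0.052), Fnbp1l (0.072) and Kank3 (0.086), and nearest to Myh11 were Gbp9 (0.204), Tpm4 (0.218) and Nfkbiz (0.235). For Myh10 they were Znfx1 (0.074), Ankfy1 (0.075) and Amotl1 (0.092), and for Myh7, which hardly varied, Tatdn2 (0.032), Syf2 (0.033) and Ctsa (0.039). These distances describe 6 libraries that share 2 gates and carry no test.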

How the data were processed

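Polyadenylated RNA was sequenced as paired reads of 75 bp from a strand-specific kit, per the labels' protocols. The authors used STAR 2.5, edgeR and build mm10, per the submitters' processing notes, which give no role or setting for them. What the authors deposited is a signal: reads per gene, scaled by them to one library size and not whole, so neither raw counts nor CPM. Of 23410 gene lines, 6 were garbled (Myom3 among them) and left out. Inverting the negative binomial quantile mapping behind such values (common dispersion 0.0203) gave back the reads, and 100% of values came out whole within 0.1 reads. The read recovery and the limma fit were tested on simulated data; the permutation test was not. Genes that reached a value of 1 in 3 or more libraries were tested with limma 3.58.1 in R 4.3.3 (trend, two-sided, pseudocount 1, no block). A fold change on the log2(value + 1) scale understates that of low genes. Ratios within a library were compared by an exact permutation test over 20 assignments. Lengths are those of the longest coding transcript in GENCODE M21 basic.

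Replicates are numbered in accession order. The members, lists and alternatives were chosen with earlier results of these data known. All 7 members are named. Beyond them, each list names its most abundant member and up to 3 called members with the largest change, not all of which are reported here (a further marker list is not reported), and the likeness ranking names 3 genes per member. The smallest Myh11 value rests on 12 reads. Read numbers speak to counting error only, because PCR copies were not told apart.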

Additional observations from a re-analysis of the deposited data

How the results depend on the processing

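Over 15 alternatives (pseudocount, filter, scaling, robust fit, limma-voom, block and each library left out), Myh7b, Myh9, Myh11 and Myh14 kept their direction and their side of the threshold. The log2 fold changes ran from 0.71 to 1.03, from -2.12 to -1.83, from -3.11 to -2.44 and from 0.47 to 0.81 in that order. Myh6 was called at 0.75 with limma-voom on recovered reads, robust empirical Bayes, a minimum value of 10 and the title tag as a block, and Myh10 was called at -0.69 with one common total and at -0.48 with the block. Myh7 turned to -0.09 with one common total, a scaling that moved the median of all genes by -0.20. The cause of the changed calls of Myh6 and Myh10 was not tested. Leaving out 1 library gave 0.59 to 0.93 for Myh6, called at 0.93 without FITCdim replicate 3, 0.06 to 0.20 for Myh7 and -0.60 to -0.33 for Myh10.

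Genes higher in FITChigh numbered 324, and 41 with one common total, 1064 with the block and 67 to 341 with 1 library left out. Genes lower numbered 1748, and 1152 to 1672 with 1 library left out. Higher genes made up 15.6% of calls, 1.84% with one common total, 27.8% after quantile normalization (which moved the median of all genes by 0.14) and 34.1% with the block. No value of the 7 paralog ratios changed sign in 63 alternatives. Many of them could not change sign. Permuting signs within tags leaves the difference as it is, and a ratio without overlap keeps its sign whichever library is left out. Of 112 alternatives to the 16 marker ratios, for which the same holds, 3 did change sign, all of Myh11. Its difference ran from -0.46 to 0.01 against endothelial, from -0.37 to 0.57 against fibroblast and from -0.64 to 0.09 against macrophage markers with 1 library left out.

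The titles of replicates 2 and 3 carry number tags that recur in both gates, whose meaning is not stated, and replicate 1 of each gate has no tag, so that the third block is the untagged pair. These were not shown to pair the libraries. Deviations correlated across 12907 genes at 0.125 and 0.175 between libraries of the same tag, at 0.071 between the untagged ones and at -0.122 to -0.008 between the others, so each library correlated best with its counterpart, a hint from the data and not the design. With the tag as a block, limma gave adjusted p-values of 0.0041 for Myh6 and 0.027 for Myh10. Exact sign permutations within tags cannot go below p = 0.25. Myh11 in FITChigh rests on 57 reads, which limits its ratios.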
